A study of Caenorhabditis elegans with 22 samples.

Results

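The hairpins mir-1018, mir-2220 and mir-4807, listed as cel-mir-1018, cel-mir-2220 and cel-mir-4807, are 3 of 250 miRNA hairpins counted in 22 small RNA libraries of whole Caenorhabditis elegans. They were chosen as neighbours on chromosome X whose counts were highest late in life, so their levels across ages chose them and are given here as a description with no test. Each of the 8 groups was made of N2 hermaphrodites (N2 is the standard wild-type strain) at 1, 5, 10 or 20 days of age. Of the worms of each age, some were labelled as given rotenone (0.039441 µg/ml), which blocks mitochondrial complex I. The others were labelled 2-deoxyglucose, a sugar analogue that inhibits glycolysis, with no dose in the labels, although the series title has DMSO, a solvent, in its place. Each group at days 1, 5 and 10 held 3 libraries, and each at day 20 held 2. The labels are followed here. If the title is right, the comparison is of rotenone with a solvent. No worms labelled as untreated were analysed here, so by the labels a difference between the compounds cannot be assigned to either. Separate cultures are not stated for the libraries of a group, so p-values measure only the spread between these libraries, which may be technical.

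A miRNA hairpin is usually cut from a longer transcript by the nuclease Drosha, then by Dicer, and its mature strand guides an Argonaute protein to messenger RNAs. In a mirtron the hairpin is instead a short intron: the spliceosome sets its ends, and after debranching it folds and passes to Dicer without Drosha. The hairpin mir-1018 is among the mirtrons described in worms.

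In the WBcel235 annotation all 3 hairpins were introns of the same gene. The gene Y59E1B.1 (WBGene00021990) is annotated as a non-coding RNA on the plus strand of chromosome X, from 1871399 to 1880492, with 35 exons and 34 introns over 9094 bases. The hairpin mir-4807 (WBGene00219247, X, 1872466 to 1872526, 61 bases) was intron 3 exactly, with both ends at exon boundaries. The hairpin mir-2220 (WBGene00194831, X, 1873827 to 1873884, 58 bases) was intron 11, and mir-1018 (WBGene00050924, X, 1879458 to 1879513, 56 bases) was intron 27. Gaps of 1300 bases between mir-4807 and mir-2220 and of 5573 bases between mir-2220 and mir-1018 gave a span of 7048 bases. The nearest protein-coding genes, tbx-41 and B0294.3, lay 4760 bases before and 11694 bases after the host. The annotated mature strand of mir-1018 (22 bases) and that of mir-4807 (23 bases) lie on the 3′ arm, and mir-2220 has a 22-base strand on each arm. Each of the 3′ strands ends at the last base of its intron. The deposited count is 1 value per hairpin, so arms could not be separated, nor mature strands told from other pieces of the same intron.

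The same gene holds 8 further hairpins, each again an exact intron: mir-4808, mir-4809, mir-4810b and mir-4810a in introns 6, 10, 12 and 20, and mir-4925, mir-4923b, mir-4923a and mir-4921 in introns 28, 29, 31 and 32. Thus 11 of the 34 introns are annotated as hairpins, and all 11 are in the deposited table. Among the 250 hairpins counted, 21 filled an intron exactly, 10 of them in other genes. The 8 further hairpins of Y59E1B.1 were too scarce for the filter on low counts. All 3 chosen hairpins passed that filter, mir-2220 and mir-4807 through their day 20 libraries.

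**Figure D1:**
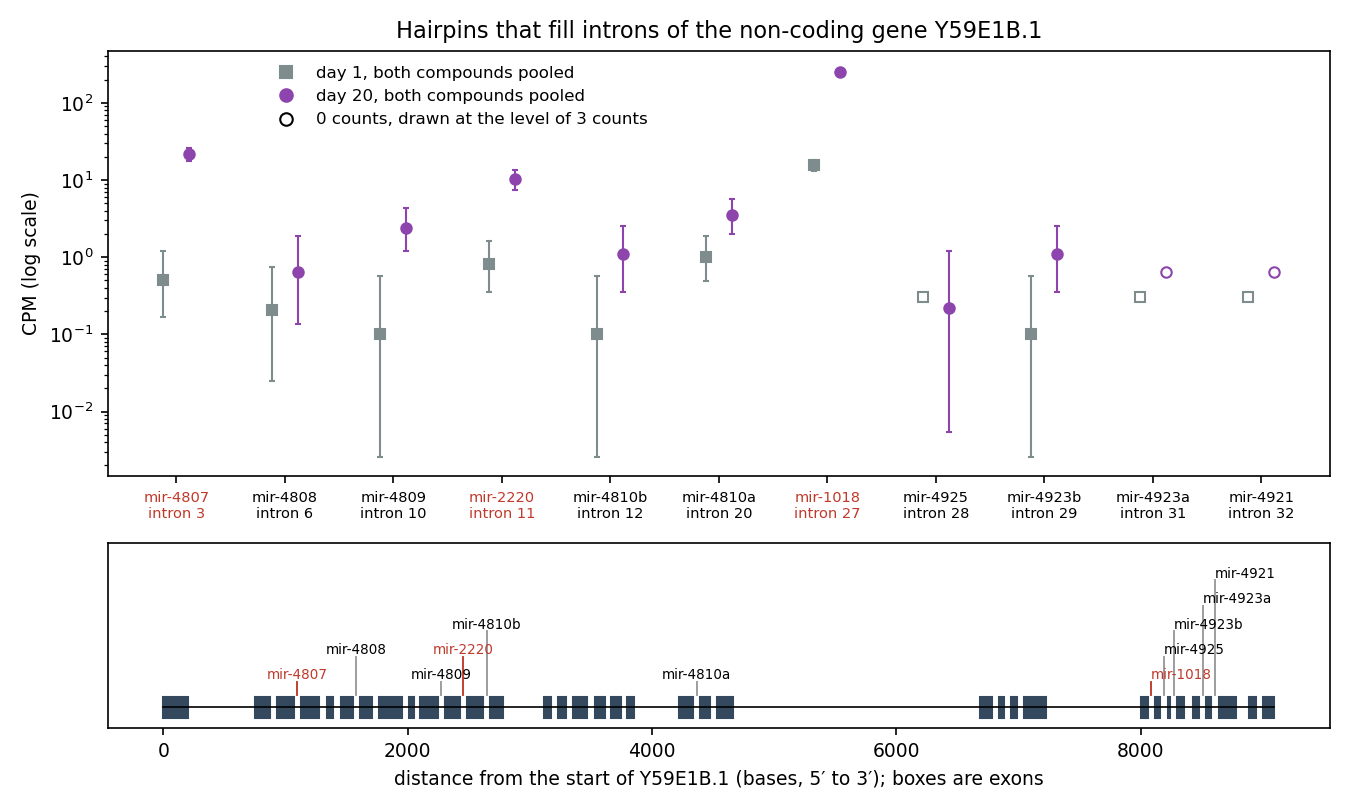
The upper panel gives the level of each of the 11 intronic hairpins of Y59E1B.1 in CPM (count scaled to a common library size, log scale) with exact Poisson 95% intervals, at day 1 (6 libraries) and day 20 (4 libraries), in order along the gene. Counts are pooled over libraries and compounds, so the intervals cover counting error only, not the spread between libraries. For mir-1018 at day 20 the interval is 237 to 266 CPM, while the libraries held 210, 218, 271 and 316 CPM. The lower panel draws the 35 exons to scale, with the 3 hairpins in red; they were the highest of the 11 at day 20. Open symbols mark 0 counts, drawn at the level of 3 counts.

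Levels are given as CPM, the count scaled to a common library size. Total counts lay between 664900 and 2233973 per library, and 1 count was worth 0.440 to 1.65 CPM (counts scaled by the TMM library size). The labelled whole worms had counts in all 22 libraries for the 7 hairpins taken as tissue markers, among them mir-1 of muscle, mir-60 of the intestine, lsy-6 and mir-124 of neurons and mir-228 of glia. The 8 hairpins mir-35 to mir-42, taken as markers of embryos, also had counts in all 22. Libraries of whole animals cannot tell a change in the number of cells of a type from a change in RNA per cell.

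The most abundant of the 3 was mir-1018. In rotenone its CPM was 17.0, 22.9 and 20.7 in the day 1 libraries, 36.0, 23.1 and 20.0 at day 5, 32.7, 36.0 and 43.8 at day 10, and 210 and 218 at day 20. In 2-deoxyglucose it was 10.2, 11.8 and 8.50 at day 1, 37.3, 31.3 and 25.8 at day 5, 42.3, 48.8 and 48.2 at day 10, and 271 and 316 at day 20. Every day 20 library stood above every earlier one, with 48.8 CPM the highest before day 20 and 210 the lowest at day 20. As background to levels that chose the hairpin, 34.0% of the hairpins tested were called higher at day 20 than at day 1 in rotenone and 28.4% in 2-deoxyglucose. The order of the group means ran from 2-deoxyglucose day 1 (10.2 ± 1.66 CPM, SD, n = 3) through rotenone day 1 (20.2 ± 2.96), rotenone day 5 (26.4 ± 8.48), 2-deoxyglucose day 5 (31.5 ± 5.74), rotenone day 10 (37.5 ± 5.70) and 2-deoxyglucose day 10 (46.4 ± 3.57) to rotenone day 20 (214 ± 5.46, n = 2) and 2-deoxyglucose day 20 (293 ± 32.5, n = 2). From rotenone day 1 to 2-deoxyglucose day 10 each neighbouring pair in that order overlapped in its libraries, while the first step and the steps to and at day 20 did not.

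The fitted log2 change of mir-1018 between days 1 and 5 was 0.40 ± 0.21 (SE) in rotenone and 1.65 ± 0.25 in 2-deoxyglucose. Between days 1 and 10 it was 0.88 ± 0.21 in rotenone and 2.20 ± 0.23 in 2-deoxyglucose, and between days 10 and 20 it was 2.51 ± 0.19 and 2.66 ± 0.18. Over the whole interval it was 3.39 ± 0.19 and 4.85 ± 0.21. Among the 141 hairpins that passed the filter, mir-1018 went from place 112 by mean CPM at day 1 to place 70 at day 20 in rotenone, and from 125 to 61 in 2-deoxyglucose.

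**Figure D2:**
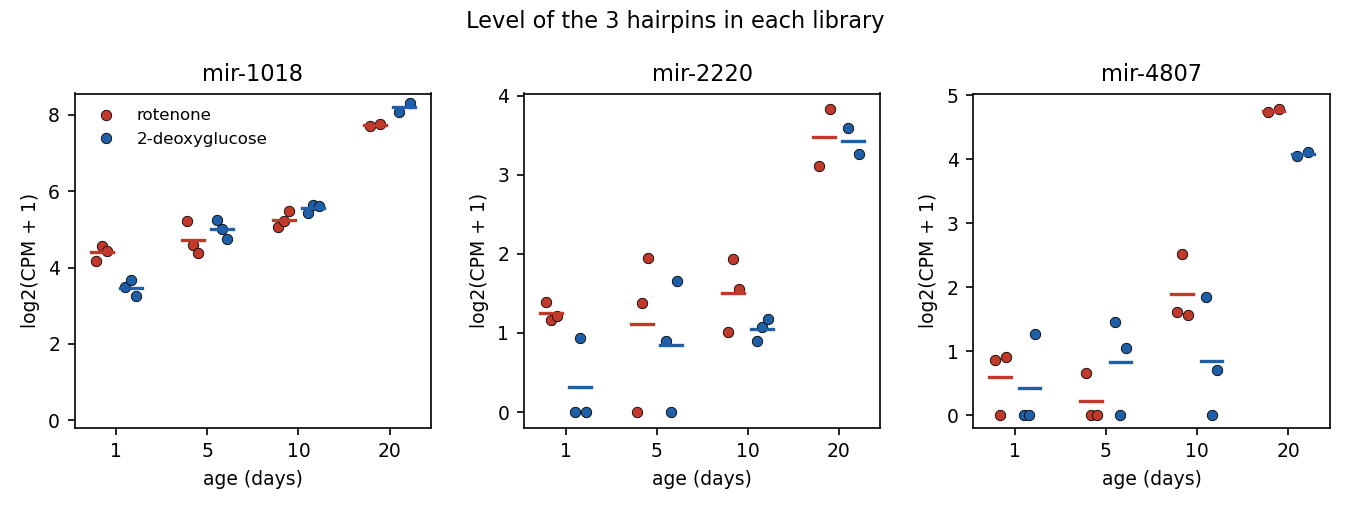
Each point is a library, with log2(CPM + 1) on the vertical axis and age in days on the horizontal axis; bars are group means, rotenone in red and 2-deoxyglucose in blue. The 4 day 20 libraries lie above the 18 earlier ones for all 3 hairpins, which their choice as late risers made likely, and mir-1018 at day 1 is split by compound.

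The hairpin mir-2220 was at the limit of detection until day 20. Its counts in rotenone were 2, 2 and 3 at day 1, 0, 3 and 3 at day 5, 1, 3 and 2 at day 10, and 9 and 18 at day 20. In 2-deoxyglucose they were 0, 1 and 0 at day 1, 1, 0 and 2 at day 5, 1, 1 and 2 at day 10, and 10 and 10 at day 20. No library before day 20 held more than 3 counts, and none at day 20 fewer than 9. The day 20 means were 10.5 ± 3.99 CPM in rotenone and 9.83 ± 1.78 CPM in 2-deoxyglucose (SD, n = 2 each), and the means of the 6 earlier groups lay between 0.303 and 1.94 CPM, each group overlapping its neighbour in the order of means. Against day 1 the pooled rate at day 20 was 7.82 times as high in rotenone (27 counts against 7; exact 95% interval 3.32 to 21.3). In 2-deoxyglucose it was 45.3 times as high, with 20 counts against 1 and an interval of 7.24 to 1876. These intervals cover counting error only, since PCR copies of a molecule may be counted more than once. The late levels chose the hairpin, so the intervals are a description and no test of a rise.

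The hairpin mir-4807 was likewise scarce before day 20. Its counts in rotenone were 1, 0 and 2 at day 1, 1, 0 and 0 at day 5, 2, 5 and 2 at day 10, and 30 and 36 at day 20. In 2-deoxyglucose they were 0, 0 and 2 at day 1, 2, 0 and 1 at day 5, 3, 0 and 1 at day 10, and 14 and 19 at day 20. Day 20 stood apart from every earlier library in both compounds, which the choice of late risers made likely. At day 20 the means were 26.1 ± 0.752 CPM in rotenone and 15.9 ± 0.546 CPM in 2-deoxyglucose, and rotenone day 10 came next at 2.91 ± 1.58 CPM, overlapping with 2-deoxyglucose day 10 (1.07 ± 1.35). The other 4 groups, with means of 0.190 to 0.937 CPM, each held a library with no count. The pooled rate at day 20 was 44.6 times that of day 1 in rotenone (66 counts against 3; interval 14.6 to 222) and 37.3 times in 2-deoxyglucose (33 against 2; 9.55 to 321). Between days 10 and 20 it was 8.89 times (interval 4.41 to 20.3) and 14.6 times (5.19 to 56.7). Here too the intervals cover counting error only and, for a hairpin chosen by its late levels, are no test of a rise.

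The 3 hairpins differ little in length, and per 100 bases of hairpin the day 20 levels were 382 CPM for mir-1018, 42.7 for mir-4807 and 18.1 for mir-2220 in rotenone, and 524, 26.1 and 17.0 in 2-deoxyglucose. At day 20 mir-4807 in intron 3 and mir-1018 in intron 27 were both above the hairpins that lie between them. The day 20 libraries were spread over lanes 2, 3, 4 and 5 by the lane numbers in the labels, 1 in each. Within each of these 4 lanes the day 20 library exceeded the earlier libraries for all 3 hairpins. For mir-1018 it held 210 CPM against at most 37.3 in lane 2 and 218 against 43.8 in lane 3. In lanes 4 and 5 it held 271 against 42.3 and 316 against 48.8. This order follows from every day 20 library standing above every earlier one, which the choice of late risers made likely. It is a description and no test of lane.

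The other 8 intronic hairpins of Y59E1B.1 were scarcer still, with 79 counts in all: 41 in the 4 day 20 libraries and 38 in the 18 earlier ones. Their summed level in rotenone was 8.51 and 11.8 CPM at day 20 and at most 3.08 CPM earlier, so the ages did not overlap. In 2-deoxyglucose it was 6.0 and 8.87 CPM at day 20, and 1 day 5 library, at 6.59 CPM, lay within that range. The pooled day 20 rate was 5.27 times that of day 1 in rotenone (26 counts against 10; exact 95% interval 2.46 to 12.2) and 6.79 times in 2-deoxyglucose (15 against 5; interval 2.35 to 23.9). Both intervals cover counting error only. This list was drawn from the annotation after the counts were known, and no test was made. By single hairpins, mir-4809 had 4, 3, 2 and 2 counts in the day 20 libraries and 3 counts in the 18 earlier libraries together. For mir-4810a the day 20 counts were 4, 6, 4 and 2, with 23 counts earlier. The remaining 6 had at most 3 counts in any library, and mir-4810a and mir-4810b, as well as mir-4923a and mir-4923b, are named as pairs of relatives, which could share reads.

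Within the host, mir-1018 held most of the counts at every age. Before day 20 it made up 88.2% of the 737 counts of the 11 hairpins (exact binomial 95% interval 85.6 to 90.4%), mir-2220 3.66% (2.43 to 5.29%) and mir-4807 2.99% (1.88 to 4.48%). These intervals cover counting error in the pooled counts, not the spread between libraries. At day 20 the share of mir-4807 was 10.1% and 9.86% in the rotenone libraries and 5.07% and 4.69% in the 2-deoxyglucose libraries, and that of mir-1018 was 83.4% and 80.8% against 88.4% and 91.1%. Neither share overlapped between the compounds, but the smallest two-sided p that an exact permutation test allows for 2 libraries against 2 is 0.333, and none was run.

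Rotenone and 2-deoxyglucose were compared at each age by the quasi-likelihood F test of edgeR, adjusted by the Benjamini-Hochberg method over all 141 hairpins with a threshold of 0.05, a contrast that the choice of the 3 hairpins did not use. At day 1 mir-1018 was higher in rotenone, with 20.2 ± 2.96 against 10.2 ± 1.66 CPM and no overlap between the 3 libraries of each group. The log2 difference was 1.01 ± 0.24 (SE; edgeR adjusted p = 0.00649), in a comparison in which 11.3% of the hairpins tested were called and 9.22% were called higher in rotenone. The call was lost under some alternatives: without library 3 of 2-deoxyglucose day 1 the difference was 0.90 (edgeR adjusted p = 0.0981), and with lane as a factor 0.69 (adjusted p = 0.211). At every age the compounds shared no lane, with lanes 4, 5 and 6 for rotenone and 7, 1 and 2 for 2-deoxyglucose at day 1. Within an age compound and lane therefore cannot be told apart, and the lane term drew on libraries of other ages. Of the 8 embryo markers mir-35 to mir-42, 4 were also higher in rotenone at day 1 by the same test and none was lower. Their summed level was 136826 to 187711 CPM in rotenone and 108669 to 138183 CPM in 2-deoxyglucose, overlapping at the edge, with none of the 8 at 0. Again 4 of the 8 markers were higher in rotenone at day 5, where mir-1018 was not called. At day 10 none was higher and 1 was lower, and at day 20 none was called. The part of these markers in the day 1 result was not tested.

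At later ages the difference of mir-1018 had the opposite sign and did not pass the test. It was -0.24 ± 0.21 at day 5 (95% interval -0.68 to 0.20; 9.93% of hairpins called), -0.31 ± 0.20 at day 10 (-0.71 to 0.10; 5.67% called) and -0.46 ± 0.18 at day 20 (-0.84 to -0.08; edgeR adjusted p = 0.177; 0.709% called). In the fit of the 4 day 20 libraries alone the day 20 difference was -0.63 and passed (edgeR adjusted p = 0.00889). That fit called many more of the 141 hairpins than the main fit, as counted below under the processing. Averaged across the 4 ages the difference was 0.00, and 10.6% of hairpins were called there.

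The change from day 1 to day 20 was accordingly smaller in rotenone than in 2-deoxyglucose for mir-1018. The difference of the changes was -1.47 ± 0.30 on the log2 scale (interval -2.10 to -0.84; edgeR quasi-likelihood F test, adjusted p = 0.00359), and 3.55% of the 141 hairpins, or 5, were called in this comparison, 2.13% in the same direction as mir-1018. The other 4 were the embryo marker mir-42 (-1.84), its neighbour mir-43 (-1.51), mir-246 (0.74) and the let-7 relative mir-241 (0.89). With each of the 22 libraries left out in turn it lay between -1.69 and -1.38 and was called in all 22 fits. With lane as a factor the difference was -1.09 and was not called (edgeR adjusted p = 0.326). Of the 8 embryo markers mir-42 was the 1 called in this comparison, and their part in the result was not tested. For mir-2220 the difference of the changes was -2.10 ± 1.18 (interval -4.55 to 0.35, edgeR adjusted p = 0.357). For mir-4807 it was 0.33 (edgeR adjusted p = 0.970), and with each library left out it ranged from -2.26 to 1.09.

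For mir-2220 the log2 difference between the compounds was 2.23 ± 1.09 at day 1 (interval -0.03 to 4.50; edgeR adjusted p = 0.247), and its counts there were 7 in rotenone and 1 in 2-deoxyglucose. At day 20 it was 0.13 ± 0.48 (interval -0.87 to 1.13), with a sign that depended on the scaling (-0.01 with DESeq2 size factors). For mir-4807 the day 20 difference was 0.71 ± 0.39 (interval -0.11 to 1.52, edgeR adjusted p = 0.376). The libraries of the compounds did not overlap there, which with 2 libraries against 2 is weak evidence. The smallest two-sided p that an exact permutation test allows for such groups is 0.333, and none was run. At days 5 and 10 the intervals were wide, from -4.75 to 0.83 and from -0.42 to 3.12 for mir-4807, and from -1.83 to 2.23 and from -1.08 to 2.65 for mir-2220. Differences of several-fold between the compounds were thus not detectable for mir-2220 and mir-4807 at this depth before day 20.

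**Figure D3:**
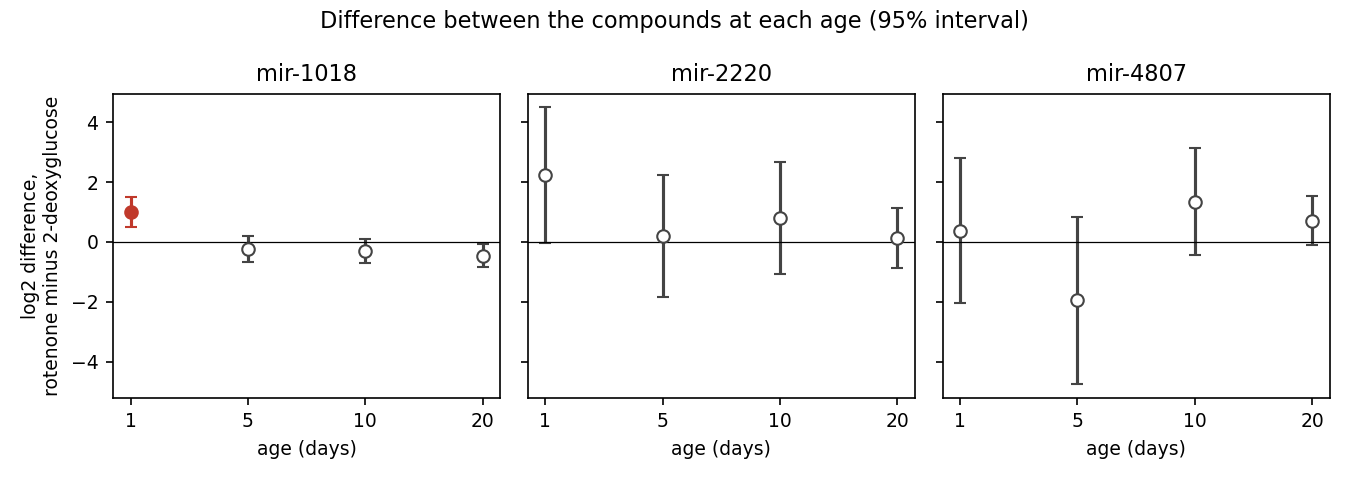
Points are log2 differences, rotenone minus 2-deoxyglucose, at each age in days, with 95% intervals from the edgeR fit; the filled red point passed the test over all 141 hairpins. Only mir-1018 at day 1 (1.01) passed. The intervals of mir-2220 and mir-4807 are wider than those of mir-1018, most of all before day 20.

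Position on chromosome X was examined for the hairpins with a position in the annotation. The name let-7 was not matched there, so let-7 is left out of the X-linked list whatever its chromosome. Of 66 other X-linked hairpins with a position in the annotation 44 passed the filter, and from day 1 to day 20 16 of them rose and 12 fell in rotenone, while 14 rose and 11 fell in 2-deoxyglucose (edgeR, adjusted p under 0.05). The shares that rose, 36.4% and 31.8%, stood beside 34.0% and 28.4% of all 141 hairpins, and the shares that fell, 27.3% and 25%, beside 29.8% and 34.0%, and the list's median log2 changes were -0.11 and -0.04 beside -0.03 and -0.09. The largest changes on X included the fall of the lin-4 relative mir-237 (-4.75 ± 0.19 and -4.37 ± 0.18) and the rise of mir-239b (4.61 ± 0.24 and 4.00 ± 0.23), with mir-788 and mir-799 also falling. Outside the host gene the single table hairpin within 100 kb was mir-796, which had at most 5 counts in any library and was not tested. Over the same interval 7 of the 8 embryo markers rose in rotenone and 8 in 2-deoxyglucose, with medians of 1.57 and 1.90, and their summed level at day 20 was 268785 to 316498 and 239190 to 258341 CPM. Their part in the late levels of mir-1018, mir-2220 and mir-4807 was not tested. Of the 7 tissue markers 1 rose and 3 fell in rotenone and none rose and 3 fell in 2-deoxyglucose. The hairpins mir-1, mir-60 and lsy-6 fell in both compounds. The neuronal marker mir-124 was called in neither (0.04 and -0.93 ± 0.59, edgeR adjusted p = 0.949 and 0.176). From day 1 to day 20 mean mir-228 went from 76620 to 127526 CPM in rotenone and from 98368 to 104423 in 2-deoxyglucose. In the same order the means of mir-790 went from 161 to 212 CPM and from 179 to 202 CPM. Those of mir-791 went from 20.0 to 17.1 CPM and from 19.9 to 16.3 CPM.

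**Figure D4:**
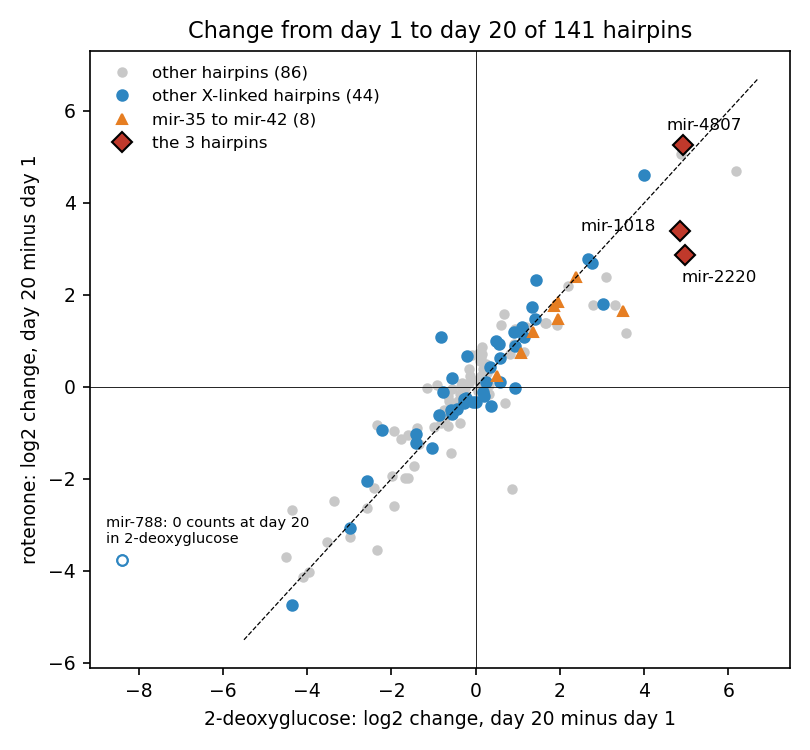
Each point is 1 of 141 hairpins, with its log2 change from day 1 to day 20 in 2-deoxyglucose (horizontal) and rotenone (vertical); the dashed line marks equal change. The red diamonds are mir-4807 (4.93 and 5.27), mir-1018 (4.85 and 3.39) and mir-2220 (4.98 and 2.87), whose fitted changes rest on 1 to 7 counts at day 1 for mir-2220 and mir-4807; the open point, mir-788, had 0 counts at day 20 in 2-deoxyglucose, so its value is no bound.

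Likeness of profile was taken as the root-mean-square difference between group means of log2 CPM over the 8 groups, each hairpin centred on its own mean. The profile nearest to mir-1018 was that of mir-2208b (0.43), followed by mir-239b (0.46), mir-4807 (0.56), mir-34 (0.64) and mir-2220 (0.65), against a median of 1.56 over the hairpins tested. Nearest to mir-4807 were mir-239b (0.52), mir-1018 (0.56), mir-2220 (0.58), mir-2208b (0.58) and mir-2209a (0.73). The 3 hairpins were chosen for late high levels over these same groups, so their likeness to each other follows from the choice and is given as a description. Nearest to mir-2220 were mir-2209a (0.27), mir-44 and mir-45 (0.45 each), mir-39 (0.45) and mir-36 (0.51), of which mir-36 and mir-39 are embryo markers and mir-44 and mir-45 are relatives whose reads may be shared. These orders depended on the settings. With 0.5 in place of 2 as the count added before the logarithm, mir-2220 kept 1 of its 5 neighbours and mir-1018 came first, while mir-1018 and mir-4807 each kept 4 of 5. Over the 22 libraries in place of the group means, mir-1018 kept 3 of 5, mir-2220 kept 4 and mir-4807 kept 5. Under both alternatives mir-239b, not mir-2208b, was nearest to mir-1018. Levels on the CPM scale differed widely among these, mir-239b standing at 7883 ± 871 and 7309 ± 671 CPM at day 20 and mir-2208b at 22.4 ± 2.80 and 40.4 ± 2.50 CPM in rotenone and 2-deoxyglucose.

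**Figure D5:**
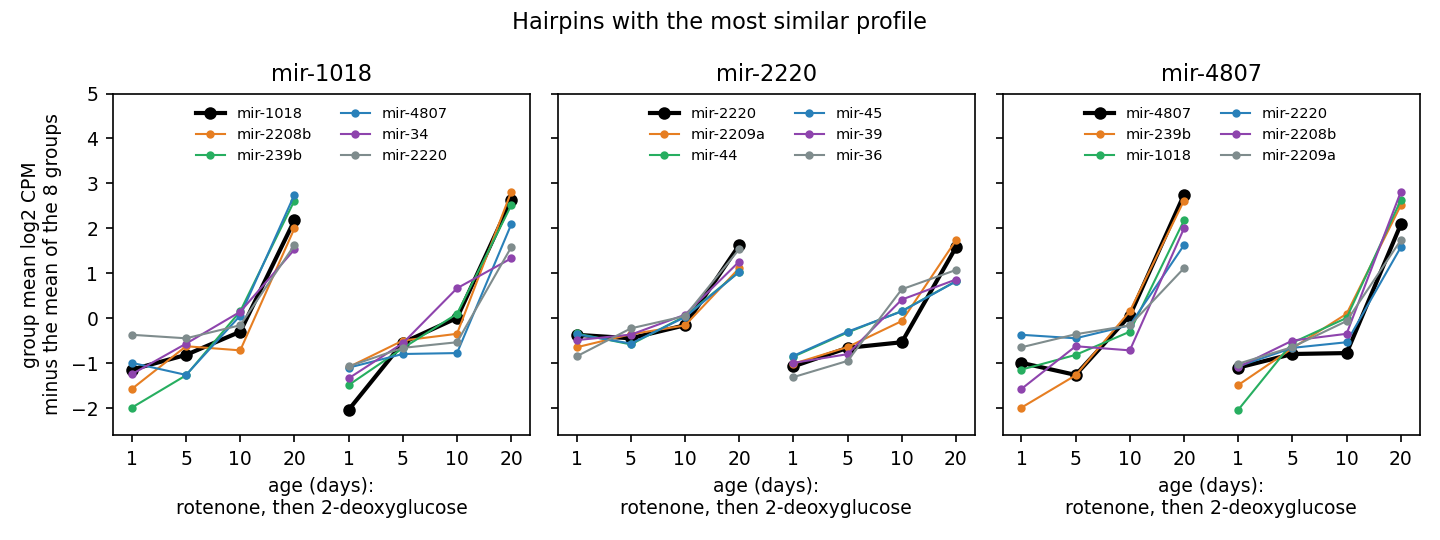
Lines join group means of log2 CPM over age in days, rotenone at the left and 2-deoxyglucose at the right of each panel, after subtracting each hairpin's mean over the 8 groups; the named hairpin is in black and its 5 nearest profiles in colour. In all 3 panels the step from day 10 to day 20 is the largest of the black line in both compounds; the ages are drawn at equal distances, so slopes are not rates per day.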

How the data were processed

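What the authors deposited is 1 table of raw counts, whole numbers per hairpin for 250 miRNA hairpins in 22 libraries. Per the labels' protocols the libraries were built with the TruSeq small RNA kit. The submitters' processing notes name Trimmomatic 0.36, CASAVA 1.8.4, SAMtools 1.3.1-9 and BWA 0.7.12-r1039, without their order or settings. For the reference build, strand and reads matching several hairpins the answer is not given in the sources used here. Positions come from the Ensembl annotation of WBcel235, matched by name for all but 3 hairpins. An intron counted as filled when its start, end and strand were those of the hairpin.

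Hairpins were kept by filterByExpr (minimum count 10, minimum total 15), scaled by TMM and fitted as 8 groups with edgeR 4.0.16 in R 4.3.3 (quasi-likelihood). A standard error is the absolute log2 value over the root of its F statistic, and is unstable near 0, where only the value is given. Total counts were 664900 to 2233973 per library. Replicate numbers give the order of accession and were not used to pair libraries. Libraries of 1 group differed beyond counting noise (chi-square per degree of freedom 12.1 to 328). DESeq2 1.42.0 and limma 3.58.1 served as alternatives, beside other scalings, filters, a lane term and libraries left out. The scripts were tested on simulated counts.

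The hairpins, lists and tests were chosen with earlier results of these data known. Named are the 3 hairpins, those within 100 kb, the 5 nearest profiles of each, and per list up to 4 with the largest change from day 1 to day 20; members of counts of 5 or fewer were named after their values were seen. The lists of intron-filling hairpins were added after seeing the data. Seeds, sequence features and promoter motifs were planned and were not analysed here.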

Additional observations from a re-analysis of the deposited data

Results flagged for a closer look

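The change of mir-1018 from day 1 to day 20 differed between the compounds by the test of the difference itself, with a log2 difference of -1.47 (3.39 in rotenone minus 4.85 in 2-deoxyglucose; edgeR adjusted p = 0.00359). With lane as a factor it was -1.09 and was not called (edgeR adjusted p = 0.326). The compounds shared no lane within an age, so compound and lane cannot be told apart there. At day 1 the rotenone libraries held 17.0 to 22.9 CPM and the 2-deoxyglucose libraries 8.50 to 11.8 CPM, and at day 20 the rotenone libraries held 210 and 218 CPM and the 2-deoxyglucose libraries 271 and 316 CPM. The compounds differed by the test at day 1 (edgeR adjusted p = 0.00649), a call also lost with lane as a factor, and not at day 20 (adjusted p = 0.177). Outliers within groups were not tested, since no group had more than 3 libraries.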

How the results depend on the processing

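No paired analysis was possible because the replicate numbers follow the order of the records and tie no library of one group to a library of another. In every alternative tried the changes of the 3 hairpins from day 1 to day 20 kept their sign. A late rise in these same libraries chose the hairpins, so the kept sign was largely fixed in advance. It and the ranges given below are a description and no support for the rise. In rotenone the changes moved from 3.39 ± 0.19 (SE) to 3.21 for mir-1018 with total counts. For mir-2220 the move was from 2.87 ± 0.57 to 2.02 with lane as a factor. In 2-deoxyglucose mir-1018 moved from 4.85 ± 0.21 to 5.08 (TMM without mir-35 to mir-42 and the 5 most abundant hairpins) and 4.61 (lane). There mir-2220 moved from 4.98 ± 0.84 to 5.47 (DESeq2), 4.39 (limma-voom) and 5.61 (lane), and mir-4807 from 4.93 ± 0.70 to 5.33 (DESeq2) and 3.85 (lane). The rotenone change of mir-2220 from day 1 to day 10 was -0.51 with lane. With each library left out, the change of mir-2220 from day 1 to day 5 in rotenone ranged from -0.69 to 0.57, and that of mir-4807 from day 1 to day 10 in 2-deoxyglucose from -0.085 to 3.66. The same scalings moved the median of all hairpins, by -0.18 with total counts in rotenone and 0.23 with the reduced TMM in 2-deoxyglucose. With each library left out, the changes from day 1 to day 20 in rotenone ranged from 3.22 to 3.48 for mir-1018, 2.38 to 3.19 for mir-2220 and 4.78 to 5.86 for mir-4807. In 2-deoxyglucose they ranged from 4.81 to 5.00, 4.30 to 6.76 and 4.17 to 7.46.

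For the compounds, lane as a factor gave mir-1018 0.69 at day 1 and -1.09 for the difference of the changes, neither called, mir-4807 -0.72 at day 1, and mir-2220 -0.17 at day 10. The day 20 difference of mir-1018 was called at -0.68 with at least 10 counts in at least 2 libraries (edgeR adjusted p = 0.0484), at -0.63 in the day 20 libraries alone, and at -0.53 without the 6 day 5 libraries (adjusted p = 0.0353), an alternative chosen after seeing the data. Signs turned for mir-2220 at day 5 with limma-voom (-0.22) and at day 20 with DESeq2 size factors (-0.011), the 10-count filter (-0.087), DESeq2 (-0.036), lane (-0.52) and the day 20 libraries alone (-0.040). The mean of mir-1018 across ages, near 0, turned to -0.058 with DESeq2 size factors, -0.054 with total counts, -0.061 with the reduced TMM, -0.036 with no filter, -0.11 with the 10-count filter, -0.056 with DESeq2, -0.0075 with limma-voom and -0.011 with lane. The cause was not tested.

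With each library left out, mir-1018 ranged from 0.90 to 1.09 at day 1 and from -0.073 to 0.046 for the mean of the ages. The same ranges were -0.33 to 1.07 at day 5 and -0.44 to 0.45 at day 20 for mir-2220. For mir-4807 they were -0.39 to 2.83 at day 1, -0.30 to 0.70 for the mean of the ages and -2.26 to 1.09 for the difference of the changes. Of these, the day 1 difference of mir-1018 kept its sign in every fit, and the other ranges span 0.

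Counts of hairpins called between the compounds moved more. At day 1 the count was 31 without the day 5 libraries and 7 to 20 with a library left out. At day 5 it was 9 with no filter and 8 to 26 with a library left out; edgeR called 0 in the day 5 libraries alone, where 13 had an unadjusted p under 0.05, and over all libraries DESeq2 called 17 and limma-voom 11. At day 10 it was 5 with the reduced TMM, 4 with no filter, 13 with the 10-count filter, 13 with DESeq2 and 21 without day 5. With a library left out at day 10 it was 0 to 11, edgeR calling 0 without 2-deoxyglucose library 3 of day 10 (26 with an unadjusted p under 0.05). At day 20 it was 3 with DESeq2 size factors, 7 with the 10-count filter, 4 with DESeq2, 2 with lane, 16 in the day 20 libraries alone, 12 without day 5, and 1 to 3 with a library left out. For the mean of the ages it was 9 with no filter, 24 with lane and 7 to 17 with a library left out. For the difference of the changes it was 3 with the reduced TMM, 3 with no filter, 9 with DESeq2, 8 in the libraries of days 1 and 20, 12 without day 5, and 3 to 9 with a library left out.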

Other observations

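Hairpins that fill introns of other genes did not share 1 direction with age. Among 10 such hairpins, 3 passed the filter on low counts. The hairpin mir-1020, an intron of the protein-coding gene T16G12.1 on chromosome III, fell from day 1 to day 20 by 3.70 ± 0.48 on the log2 scale in rotenone and by 4.51 ± 0.56 in 2-deoxyglucose (edgeR adjusted p = 3.59e-07 and 1.99e-07). The hairpin mir-62, an intron of ugt-50 on chromosome X, rose in rotenone (0.94 ± 0.26, edgeR adjusted p = 0.00285) and stood at 0.56 ± 0.28 in 2-deoxyglucose (adjusted p = 0.0887), and the difference between the compounds was not called (adjusted p = 0.639). The hairpin mir-4816 was called in neither, at -0.35 ± 0.35 and 0.69 ± 0.36. The planned mirtron list held mir-62, mir-1019 and mir-1020 beside mir-1018, and mir-1019 did not pass the filter.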
